A study of Schmidtea polychroa with 24 samples.

Results

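The 66 genes described here had RNA that was at least halved within the first day, and at or below an eighth by 168 h, in whole egg capsules (cocoons) of the freshwater planarian Schmidtea polychroa. They were chosen from the authors' normalised values, summed over the isoforms that the assembler placed under 1 gene, and they were 66 of 22365 assembler genes. A gene had to be outside the 60 genes of highest mean over all 24 libraries, reach at least 10 in each 4 h library, average at 24, 32 and 48 h no more than 50% of its 4 h mean, and average at 168 h no more than 12.5% of it. All genes that met these conditions were kept and numbered by rank, from the largest to the smallest ratio of the 4 h mean to the highest of the 24, 32 and 48 h means. The early decline and the low level at 168 h are therefore properties the genes were picked for, and they are given as values without a test. They are not the steepest early decliners as such. Of the 4233 genes that passed the abundance conditions, 314 met the 50% condition at 24, 32 and 48 h, and 248 of these were left out because they were above 12.5% at 168 h. At or below 25% of the 4 h mean there were 8 of the 66 among 32 genes at 24 h, and 20 of the 66 among 94 genes at 48 h. Among the 60 genes set aside for their abundance, 4 would have met the other conditions.

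Polyadenylated RNA was sequenced from cocoons aged 4 h, then 24 h, 32 h and 48 h, then 72 h, 96 h and 120 h, and finally 168 h after deposition, with 3 libraries per time. Each library was made from 4 whole cocoons of a sexual laboratory population, kept in well plates at 20 °C and given no treatment, so the groups are defined by age alone. A library mixes the embryos of several cocoons with the yolk around them, so its values are averages over embryo and yolk. Library totals ran from 1599902 to 9567933 estimated counts (median 3304781).

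In many animals the egg carries RNA made by the mother, and this store is degraded while the embryo's own genes become active. In planarians the fertilised eggs are laid into a capsule together with a large number of yolk cells made in separate yolk glands, an arrangement called ectolecithal development. The first embryonic cells divide among the yolk, and a temporary pharynx later swallows it. RNA deposited in a cocoon can thus lie in the egg or in the yolk cells, and sequencing whole cocoons does not separate the sources. In such bulk samples, fewer cells of a type and less RNA per cell cannot be told apart. The files pair no gene name with the assembler's IDs, so no gene is given a function here, the cocoon label was not checked against marker genes, and all but 2 genes are called by rank.

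The 66 genes were abundant at the start. Their mean normalised levels at 4 h ran from 20.5 to 3345, with a median of 269.5, whereas the median over the 4233 genes that passed the same abundance conditions at 4 h was 43.1. A high starting level was shared with 195 genes described further on that were lost later, which had a median of 182.6. Within the 66, 13 genes had a mean of 1000 or more, and 14 were below 100. The 4 h libraries together held between 299 and 36917 counts of each gene, with a median of 4526. Summed, the 66 genes took 3.73% ± 0.296 of the counts in 4 h cocoons, 1.26% ± 0.161 a day into development, when cocoons were 24 h old, 0.774% ± 0.204 by 48 h and 0.209% ± 0.0956 by the last time, 168 h (SD over 3 libraries each).

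In the normalised values, the decline had a large first step, a slow phase and a second step. The median gene stood at 37.4% of its 4 h mean in 24 h cocoons, 30.0% in those of 32 h and 30.3% in those of 48 h. By 72 h it stood at 23.5%, then at 11.0% by 96 h, 14.6% by 120 h and 5.87% by 168 h. The 120 h value rests on 120h replicate 1, without which it was 7.85%, below the 96 h value. Over the 4233 genes present at 4 h the same medians, in order of time, were 89.7%, 78.8%, 83.6%, 68.5%, 69.4%, 79.2% and 83.0%. By 24 h the median gene had covered 65.7% of the distance between its 4 h and its 168 h mean, with a range over the 66 genes of 52.0% to 94.0%. The RNAs were not cleared within the first 2 days: at 48 h, 20 of the 66 genes were at or below 25% of their 4 h mean, and 2 were at or below 12.5%. No gene was at 0 counts in all 168 h libraries, and the scarcest there, ranked 37, still had 3 counts over those libraries.

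**Figure D1:**
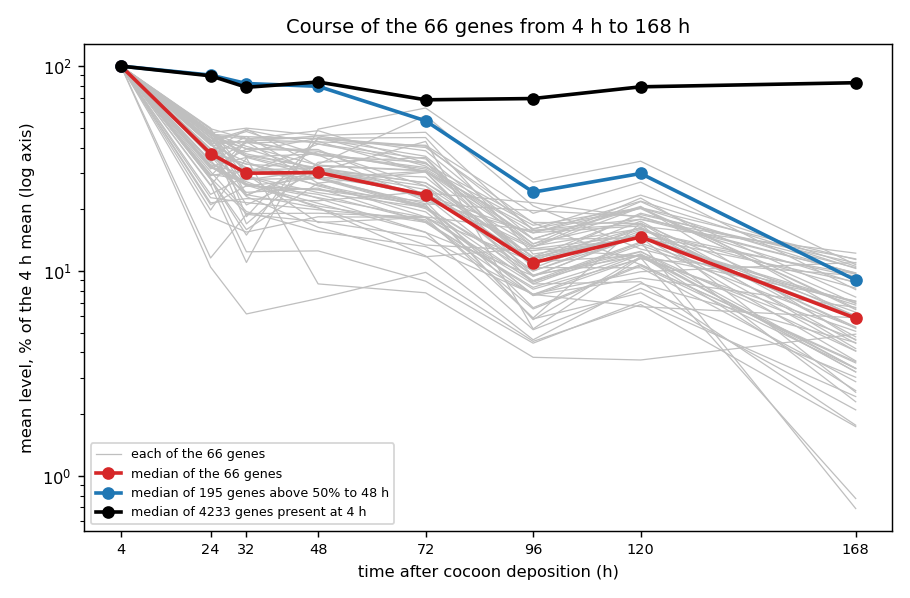
Mean normalised level of each of the 66 genes as a percentage of its own 4 h mean (log axis) against time after deposition, with medians of the 66 genes, of 195 genes that stayed above 50% at 24, 32 and 48 h and were at or below 12.5% at 168 h, and of the 4233 genes present at 4 h. The median of the 66 genes is 37.4% by 24 h, 23.5% by 72 h and 11.0% by 96 h, while the median of the 4233 genes stays above 68%.

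The gene ranked 1, TRINITY_DN228216_c0_g1, was also the one with the highest 4 h level of the 66. Its normalised level was 2016, 3659 and 4360 in the 4 h libraries, 157, 268 and 622 in those of 24 h, 264, 203 and 151 in those of 32 h, and 338, 204 and 193 in those of 48 h. Every library from 24 h onwards was below every 4 h library. It then had 385, 323 and 280 in the 72 h libraries and 131, 196 and 128 by 96 h. The 120 h libraries had 498.5, 121 and 67.2, and those of 168 h had 101, 36.4 and 36.6. Its mean was 9.58-fold higher at 4 h than at the highest of the next 3 times, and this ratio was 5.44 for the gene ranked 2 and 2.01 for that ranked 66. Its lowest early mean came at 32 h, at 6.17% of the 4 h mean, and the 72 h mean was at 9.84%.

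The early decline took different forms among the genes. The gene ranked 3 was lowest of the early times at 24 h, with 29.0, 30.0 and 19.6 there, against 216, 216 and 248 at 4 h. Its 32 h libraries had 44.0, 52.4 and 32.1, all above the 24 h libraries. The gene ranked 8 kept declining for longer. It had 1534, 1677 and 2439 in the 4 h libraries, 406, 690 and 499 in those of 24 h, and 295, 235 and 171 in those of 32 h, with no overlap between these times. Across the 66 genes, the 24 h mean was the highest of the 3 early means for 43 genes, the 32 h mean for 16 and the 48 h mean for 7. The 24 h mean was at least 1.5-fold above the 48 h mean for 17 genes, within 1.5-fold for 46 and at least 1.5-fold below it for 3.

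Not every gene was separated from its 4 h levels in each library. The genes were chosen on the means of 4, 24, 32, 48 and 168 h, so separation at these times is largely built in. It was not counted over the 4233 genes. All 24 h libraries lay below all 4 h libraries for 60 of the 66 genes, as did all 32 h libraries for 60, all 48 h libraries for 61 and all 72 h libraries for 59. From 96 h onwards this held for all 66. The gene ranked 21 shows such an overlap. It had 833, 229 and 154 at 4 h, so that replicate 1 was far above the others, and 51.3, 29.2 and 353 at 32 h. Its mean ratio therefore rests on single libraries at both times.

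**Figure D2:**
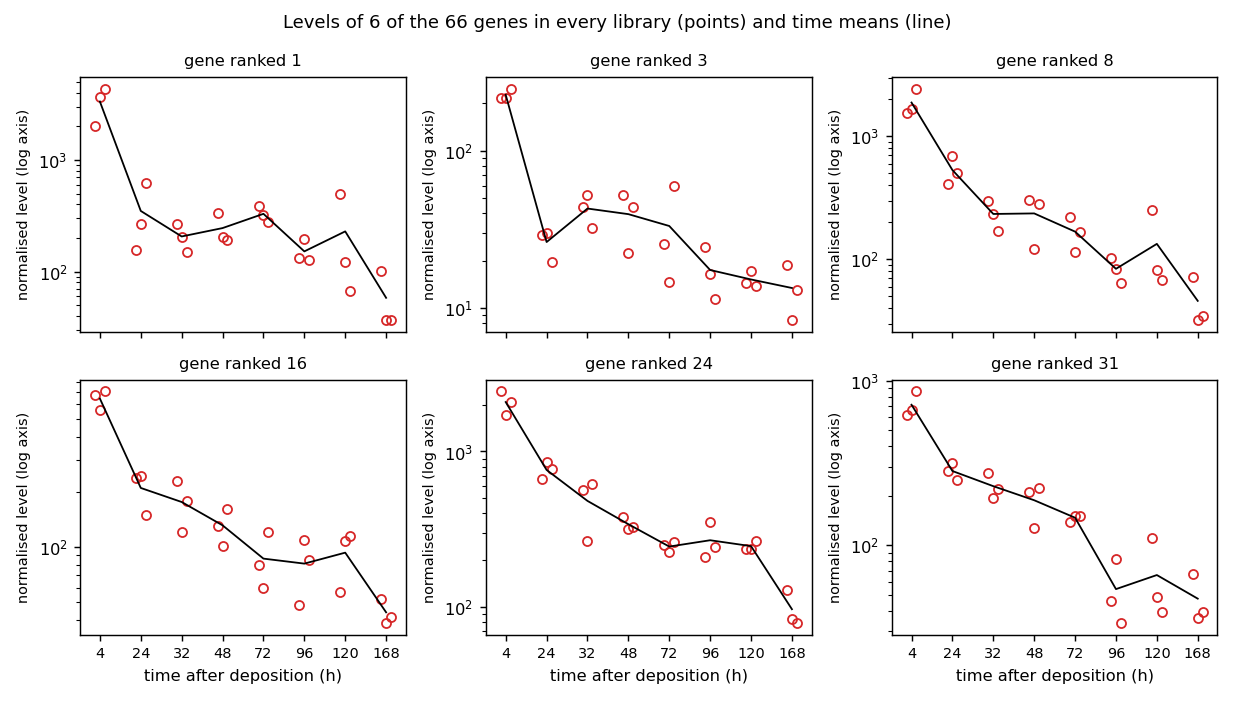
Normalised level (log axis) of the genes ranked 1, 3, 8, 16, 24 and 31 in each library (points, replicates 1 to 3 from left to right) and the mean of each time (line). The gene ranked 31 drops between 72 and 96 h, to a mean of 54.3, while that ranked 24 does not, with a mean of 268 at 96 h.

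Between 48 and 72 h levels moved little, with the 72 h mean within 1.5-fold of the 48 h mean for 61 of the 66 genes and lower than it for 55. At 72 h, 2 genes stood above 50% of their 4 h mean, the genes ranked 34 and 61. They were among the scarcest, with 4 h means of 24.0 and 20.5.

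Comparisons among 72, 96 and 120 h were tested, since the ratios that chose the genes do not use these libraries. The libraries enter the choice only through the 60 abundant genes, and with those 60 taken from the other times 65 genes were found, all among the 66. The condition at 168 h does bear on these tests: only 2 of the 66 genes were at or below 12.5% by 48 h, so a later fall was required of the others, and the rule leaves free at which time it came. RNA of these genes was lower again at 96 h: the edgeR log2 fold change of 96 h against 72 h was below 0 for all 66, with a median of -1.38. Over the 4233 genes present at 4 h the median was -0.21, and over all genes tested it was -0.08. By edgeR's quasi-likelihood test, 14 genes fell (adjusted p under 0.05 by Benjamini and Hochberg's method over 15587 genes), which is 21.2% of the 66. A fall was called for 3.27% of all genes tested and for 9.97% of the 4233 genes present at 4 h. None of the 66 rose, where rises were called for 9.14% of all genes tested. The 4233 genes carry no condition at 168 h, so these shares are a description and not a test of what sets the 66 genes apart. Over the 314 genes halved at 24, 32 and 48 h, chosen with no condition at 168 h and including the 66, the median log2 fold change was -0.07. Of these, 161 were below 0 and 153 above it, with 30 called lower (9.55%) and 54 called higher. The log2 fold changes of the 14 genes ran from -3.22 to -1.23, and 50 of the 66 had an unadjusted edgeR p under 0.05. So had, in either direction, 2309 of the 4233 genes, 4890 of the 15587 tested and 141 of the 195 genes lost later. The 96 h libraries were all below the 72 h libraries for 50 of the 66 genes in normalised level, as they were for 23.8% of the 4233.

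The count of 14 changed when 1 library was left out, and the median log2 fold change moved little. Each such fit reran the low-count filter, which then kept 16968 to 17504 genes, against 15587 with all libraries. The effects of the missing library and of the looser filter on the count were not separated. Without 72h replicates 1, 2 and 3 the calls numbered 1, 0 and 1, and without 96h replicates 1, 2 and 3 they numbered 0, 2 and 0. Calls were lost over all genes in the same fits, to 0.666%, 0% and 0.280% called lower without the 72h replicates and 0.264%, 1.86% and 0.0581% without the 96h replicates. The library 120h replicate 1 is of another time but enters the shared estimate of spread, and with it left out 48 of the 66 fell, where 8.56% of all genes did. In these 7 fits the median log2 fold change of the 66 stayed between -1.49 and -1.32, with 63 to 66 genes below 0.

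Among the 14, the gene ranked 31, TRINITY_DN240999_c1_g2, had the smallest adjusted p and is named after its values were seen. It had 46.1, 82.9 and 33.7 at 96 h, against 139, 151 and 152 at 72 h, so the groups did not overlap. The log2 fold change of -1.67 had a standard error of 0.41 (edgeR adjusted p = 0.0152). Its 4 h libraries had 623, 661 and 863, and those of 24 h had 283, 317 and 249.

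The gene ranked 29 had the largest change of the 66 (log2 fold change -3.22, standard error 0.94, edgeR adjusted p = 0.0314). It was a scarce RNA, at 1.87, 4.24 and 1.21 at 96 h, against 37.8, 18.6 and 3.95 at 72 h, and 96h replicate 2 was above 72h replicate 3. The gene ranked 47 also fell, to 108, 74.4 and 71.9 at 96 h, against 320, 261 and 322 at 72 h (log2 fold change -2.04, standard error 0.63, edgeR adjusted p = 0.0402).

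Some genes had little or no second step. The gene ranked 24 had 210, 353 and 241 at 96 h, against 248.5, 224 and 260 at 72 h, and the groups overlapped (log2 fold change -0.09, standard error 0.26, edgeR adjusted p = 0.845). The gene ranked 16 had 48.5, 110 and 85.4 at 96 h, against 79.5, 59.4 and 120 at 72 h (log2 fold change -0.32, standard error 0.31, edgeR adjusted p = 0.497). Both had been steep in the first days, reaching 16.3% and 20.3% of their 4 h means at 48 h. In means of the normalised values, 60 of the 66 genes were at least 1.5-fold lower at 96 h than at 72 h, and 6 were within 1.5-fold. The 96 h mean was the lower for 65 of the 66. For the gene ranked 24 it was higher, at 268 against 244.

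**Figure D3:**
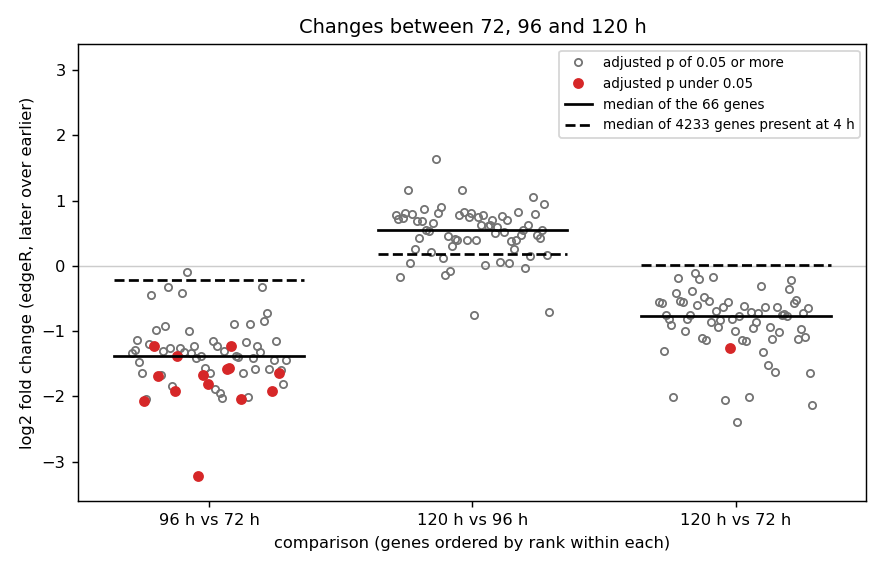
Log2 fold change (edgeR, later time over earlier time) of each of the 66 genes in the comparisons among 72, 96 and 120 h, ordered by rank within each, with filled points for adjusted p under 0.05 and lines for the medians of the 66 genes (solid) and of the 4233 genes present at 4 h (dashed). All 66 points lie below 0 at 96 h against 72 h, with 14 filled, and the median of 120 h against 96 h is 0.55 with none filled.

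At 120 h, replicate 1 stood apart from the other libraries. The median of the 66 genes was at 26.8% of the 4 h mean in 120h replicate 1, at 10% in replicate 2 and at 6.44% in replicate 3. The chi-square per degree of freedom was taken over genes with at least 10 counts in the pair of libraries, and it grows with depth. It was 116.6 and 122.7 between replicate 1 and the others, and 23.9 between replicates 2 and 3. Replicate 1 was the highest of its time for 62 of the 66 genes (93.9%), and for 42.3% of the 4233 genes present at 4 h. It exceeded all 96 h libraries for 61 of the 66 genes and reached or exceeded the lowest 72 h library for 58, counts not made over the 4233. It also had 1758238 counts in all, with 70.0% of them in the 60 most abundant genes, compared with 33.3% and 31.7% in replicates 2 and 3. The part of depth and of the abundant genes in this difference was not tested.

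The comparisons that involve 120 h turned on that library. For 120 h against 96 h, 60 of the 66 genes had a log2 fold change above 0, with a median of 0.55, where the 4233 genes had 0.18. Without 120h replicate 1 the median was -0.54 and 64 of the 66 were below 0. No gene of the 66 was called in either direction by edgeR (0 of 66, and 0% of all genes tested in either direction), 2 had an unadjusted p under 0.05, and DESeq2 and limma-trend called 0 of the 66 as well. For 120 h against 72 h, a comparison that shares the 72 h libraries with the one above, all 66 genes had a log2 fold change below 0, with a median of -0.77. So had all 195 genes lost later, with a median of -0.99, and 2102 of the 4233 genes, with a median of 0.01. None of the 66 was called higher, where 9.71% of all genes tested were. The 1 gene of the 66 that fell was that ranked 31, where 1.01% of all genes tested fell. It had 110, 48.5 and 39.4 at 120 h, against 139, 151 and 152 at 72 h (log2 fold change -1.26, standard error 0.40, edgeR adjusted p = 0.0497). Without 120h replicate 1 the median of the 66 was -2.11 and 59 of them fell, where 11.9% of all genes did. Without any other library of these times none of the 66 did (0), where at most 0.610% of all genes did.

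**Figure D4:**
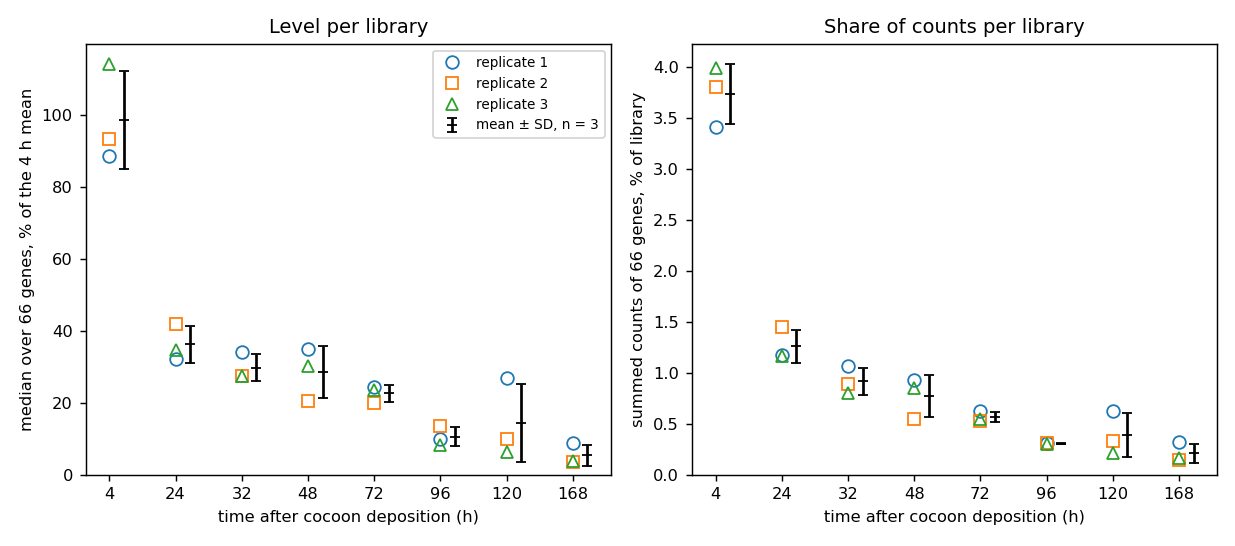
Median level of the 66 genes as a percentage of their 4 h means (left) and their summed share of a library's counts (right) for each library, by time after deposition, with mean ± SD of the 3 libraries beside the points. The 3 libraries of 96 h are at 8.23% to 13.5% on the left, while 120h replicate 1 is at 26.8%.

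The libraries of other times differed less. At 48 h, replicate 2 was the lowest for 49 of the 66 genes, with a median of 20.6% of the 4 h mean, compared with 34.8% and 30.2% in the other libraries. At 168 h, replicate 1 was the highest for 63 of the 66 genes, with 8.84% compared with 3.62% and 3.85%, and it was the highest for 66.3% of the 4233 genes. At 96 h, replicate 2 was the highest for 51 of the 66 genes, with 13.5% compared with 9.93% and 8.23%. It was the highest for 83.0% of the 4233 genes. Over the genes counted for each pair, 96h replicate 1 differed from replicates 2 and 3 by a chi-square per degree of freedom of 46.0 and 40.4. Between replicates 2 and 3 it was 18.0, and 96h replicate 1 had the fewest counts of all libraries, 1599902. At 72 h the medians of the 66 genes were 24.3%, 20.0% and 23.5%. Over the genes counted for each pair, however, 72h replicate 3 differed from replicates 1 and 2 by a chi-square per degree of freedom of 63.3 and 57.9. Between those 2 it was 8.16, and the 60 most abundant genes held 71.8% of the counts of 72h replicate 3.

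The share that the 66 genes take of a library also depends on the most abundant RNAs. The 60 most abundant genes held 33.4% ± 1.41 of the counts in 4 h cocoons, 42.9% ± 4.05 by 24 h, 55.8% ± 7.34 by 32 h, 54.6% ± 1.12 by 48 h and 65.4% ± 5.56 by 72 h. They held 46.6% ± 7.80 by 96 h, 45.0% ± 21.6 by 120 h and 24.4% ± 4.58 by 168 h (SD over 3 libraries each). Of the counts outside them, the 66 genes took 5.60% ± 0.503 in 4 h cocoons, 2.20% ± 0.160 by 24 h, 2.08% ± 0.178 by 32 h, 1.71% ± 0.486 by 48 h and 1.67% ± 0.268 by 72 h. That share was 0.581% ± 0.0936 by 96 h, 0.968% ± 0.977 by 120 h and 0.282% ± 0.146 by 168 h (SD over 3 libraries each). The share of all counts was 0.568% ± 0.0505 by 72 h, 0.306% ± 0.00587 by 96 h and 0.392% ± 0.213 by 120 h (SD over 3 libraries each), so between 72 and 96 h it changed less than the share outside the 60 genes.

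Genes lost later give a contrast in timing. A set of 195 genes, under the same condition at 168 h, met the abundance conditions at 4 h and stayed above 50% of the 4 h mean at 24, 32 and 48 h, so that they differ from the 66 at the early times by construction. The median of the 66 genes was 23.5% of the 4 h mean by 72 h, 11.0% by 96 h and 14.6% by 120 h, and that of the 195 genes at these times was 54.1%, 24.3% and 29.9%. The log2 fold change of 96 h against 72 h had a median of -1.38 in the 66 genes and -1.37 in the 195, with 14 of 66 (21.2%) and 38 of 195 (19.5%) called lower. It was below 0 for all 195 genes, as it was for all 66. Of the 120 h libraries, replicate 1 was the highest for 62 of the 66 and for 193 of the 195 genes.

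Genes with larger early ratios were also lower later. The genes ranked 1 to 22 were at a median of 18.3% of their 4 h mean by 72 h, 8.47% by 96 h and 12.3% by 120 h. At these times those ranked 23 to 44 were at 26.5%, 10.7% and 13.8%, and those ranked 45 to 66 at 30.8%, 13.9% and 16.7%. These percentages and the ranks share the 4 h means.

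The choice of genes used the sum over isoforms and left the share of each isoform free, though the shares come from the same libraries. Of the 66 genes, 21 had a single assembled isoform (31.8%, compared with 17.9% of the 4233), and the others had up to 15. In the 45 genes with several isoforms, the main isoform of the 4 h libraries held a median of 94.4% of the gene's normalised level there, 90.8% in the 24 h libraries, 83.9% in those of 48 h and 90.7% in those of 168 h. It was still the main isoform in 40 of the 45 genes at 24 h, in 37 at 48 h and in 41 at 168 h. The main isoform was picked on the 4 h values, so a higher share at 4 h than later is partly built in. Isoform use at 24 to 48 h against 4 h could be tested in 39 of the 66 genes. No change was called among them (0 of 39, edgeR diffSpliceDGE, adjusted p under 0.05 over 6396 genes), where 0.782% of all genes tested were called. At an unadjusted p under 0.05 there were 4 genes, and the gene-level F test also called 0, with no share over all genes at hand for either.

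The smallest p belonged to the gene ranked 33, whose main isoform held 90.8% in the 4 h libraries, 86.4% in those of 24 h, 64.2% in those of 48 h and 54.2% in those of 168 h (edgeR diffSpliceDGE, adjusted p = 0.169). In the gene ranked 8, with 7 isoforms, the main one held 99.4% at 4 h and 94.5% at 48 h. The isoforms of a gene share reads, so their split is less certain than their sum.

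The 66 genes tended to have shorter transcripts, by a length inferred from the deposited values. For a transcript, the deposited count divided by the normalised value was the same in every library up to 1 factor per library. This held within 1% for 99.4% of 57407 values of at least 200 counts. Summed to the gene and set to 1 at the median of the 4233 genes, the ratio ran from 0.54 to 10.1 over them. It is read here as a relative length, and no transcript lengths were at hand to check this. The median of the 66 genes was 0.78, with quartiles of 0.66 and 0.97, that of the 195 genes lost later was 0.86, and that of the 4233 genes had quartiles of 0.74 and 1.41. In all, 52 of the 66 genes were shorter than the median of the 4233. This is a description: a level per length favours short transcripts at the abundance threshold, and the 66 genes were also more abundant than the 4233. The IDs placed the 66 genes in 65 read clusters, and 2 of them shared a cluster. Clusters shared with assembler genes outside the 66 were not counted.

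The thresholds cut through a continuous range. The last genes inside the early condition had ratios of 2.02, 2.01 and 2.01, and the nearest outside had 1.997, 1.96 and 1.96. For the 168 h condition, the last inside had ratios of 8.80, 8.73 and 8.19 and the nearest outside 7.96, 7.88 and 7.80. Among the 4233 genes, 434 met the 50% condition at 24 h, 815 at 32 h and 733 at 48 h.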

How the data were processed

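Stranded mRNA libraries, 24 in all and 3 per time, were read from both ends over 100 bp, as the labels' protocols say. Tools named by the submitters' processing notes are RSEM, edgeR 3.40.2, limma 3.54.2, R 4.2.2, FastQC 0.11.2 and Trimmomatic 0.32. An aligner is not given in the sources used here. Deposited by the authors were estimated counts per assembled transcript (RSEM, not normalised, per the file names) and a normalised signal per transcript (TMM scaling by the authors, underlying unit not stated). All 48 sample columns were matched to samples by name.

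Both tables were summed per gene, the ID without its isoform number. The genes were found from the normalised signal. Counts were rounded, filtered with filterByExpr (15587 genes kept, with a median of 99.6% of counts, all 66 genes among them) and fitted in R 4.3.3 by edgeR 4.0.16, over all 24 libraries (TMM, glmQLFit, glmQLFTest; common coefficient of variation 0.684). Calls used a Benjamini-Hochberg adjusted p under 0.05 over all genes. Standard errors were back-calculated from the coefficient and F statistic, so they add nothing to the p-value. Isoform use was tested with diffSpliceDGE on 29911 transcripts. Depth limits the precision of scarce genes, and p-values measure the spread between libraries described as biological replicates. Replicate pairs differed by at least 8.16 per degree of freedom (chi-square), more than counting noise alone would give. This measure cannot tell biological replicates from separate libraries of the same RNA.

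On simulated counts for 96 h against 72 h, 32% of 100 genes with a 4-fold change and 67% of 100 with a 16-fold change were recovered, with 6 false calls among 14270 genes. The isoform test, simulated for 24 to 48 h against 4 h, recovered 63% of 100 genes with opposite 8-fold changes and made 21 false calls among 5180 genes. Alternatives used DESeq2 1.42.0, limma 3.58.1 (trend, log2(value + 1)), other filters, scalings and thresholds, the replicate block and libraries left out.

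The genes, comparison sets and tests were chosen with earlier results of these data known, and the set of 314 genes with no condition at 168 h was added after the 96 h values were seen. Of the IDs, 2 are printed: the gene ranked 1, which is also that of highest 4 h level and fills both places of the rule for falling genes, and the gene ranked 31, added after its values were seen. The rule for rising genes named none, since no gene was called higher.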

Additional observations from a re-analysis of the deposited data

How the results depend on the processing

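The direction at 96 h against 72 h was the same with TMM and DESeq2 size factors, with all 66 genes below 0 in both, but the number called was not stable. It was 14 here, 11 with DESeq2 size factors, 14 with limma-trend, 17 with the replicate block, 7 with no low-count filter, 5 with a filter of 1 CPM in 3 libraries, 32 with DESeq2, and 0 at an adjusted p under 0.01 and in a fit of the 9 libraries of 72, 96 and 120 h alone. Of all genes, in the same order, 3.27%, 3.39%, 4.13%, 3.13%, 1.49%, 1.03%, 10.7%, 0.109% and 0% were called lower. With single libraries left out it lay between 0 and 48. At 120 h against 72 h the 1 call became 2 with the replicate block, 3 with limma-trend, 7 with DESeq2, and 0 with no filter, with the 1 CPM filter, at 0.01 and in the 9 libraries alone, and it lay between 0 and 59 with single libraries left out. Of all genes, 0.764%, 1.86% and 7.17% were called lower with the replicate block, limma-trend and DESeq2. With no filter, the 1 CPM filter, 0.01 and the 9 libraries the shares were 0.353%, 0.327%, 0.0128% and 0%. Same-numbered libraries of these times had a median correlation of their deviations of -0.274 over 9 pairs. For the 18 pairs of different number the median was 0.066, with a range of -0.646 to 0.471. Between 72 and 96 h the same-numbered values were -0.274, 0.503 and 0.534 for replicates 1, 2 and 3. These correlations do not settle whether a number marks a pair. The labels do not say so, and the numbers are not taken as pairs. No rise was called among the 66 in any setting, nor any change at 120 h against 96 h or in isoform use. The cause of the changes in number was not tested.

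The rule found 66 genes, 84 with CPM, 72 with DESeq2 size factors (48 of them among the 66), 60 with a 4 h minimum of 20, and 18, all among the 66, with an early ratio of 3. With single libraries left out it found 56 to 136 genes, the most without 4h replicate 1, and kept 51 to 66 of the 66, of which 33 were kept in all 15 runs. These runs without libraries of times other than 4 h, the size factors, the 60 abundant genes taken without 72, 96 and 120 h (65 genes, all among the 66) and the 314 genes with no condition at 168 h were added after seeing the data, as was leaving 120h replicate 1 out of 96 h against 72 h. The median level at 72 h was 16.4% of 4 h in CPM and 28.7% with DESeq2 size factors, against 23.5% here. At 120 h it was 7.85% without 120h replicate 1. Scarce genes are limited by depth, the scarcest having 20 counts over the 3 libraries of 72 h and 17 over those of 96 h.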
